A study of Mus musculus with 10 samples.

Results

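Bach2 and Bcl6 encode transcription repressors of the B cell lineage, and both genes and the chromatin around them were described in mouse naive B cells and plasma cells. The members were chosen by symbol, which gave 2 of the 26599 genes in the RNA tables, with 5 deposited transcripts of Bach2 and 1 of Bcl6. Accessible regions were taken from 2 windows of the mm9 build, chromosome 4 from 32 to 33 Mb around Bach2 and chromosome 16 from 23.7 to 24.3 Mb around Bcl6. These windows held 40 of the 29868 naive peaks and 48 of the 30475 plasma peaks. Contacts were read from 2 of the 1328 bins of the 2 Mb maps, 32 to 34 Mb of chromosome 4 and 22 to 24 Mb of chromosome 16.

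The study set naive B cells beside plasma cells with RNA sequencing, with ATAC-seq, which reads accessible DNA through transposase insertion, and with tethered conformation capture (TCC), a variant of Hi-C that counts pairs of ligated DNA fragments. Each assay had 1 library per cell type, so every difference given here is between 2 libraries, with no replicate check and no test of the condition. Naive cells for RNA and ATAC-seq were CD23+IgD+ splenocytes sorted from wild-type C57BL/6 mice, and those for TCC were CD23+ cells purified on magnetic columns from wild-type mice. The ATAC-seq plasma cells were CD138+B220-IgD-CD4-CD8-Gr1-Ter119- bone marrow cells of wild-type mice, and both ATAC-seq libraries used 50000 cells. The RNA plasma cells were also wild-type, but the labels of that library contradict each other, since its source names cells activated in vitro and its protocol names the bone marrow sort. The TCC plasma library is labelled ex vivo, while its protocol gives CD23+ cells of Blimp-GFP reporter mice, cultured for 3 days with 10 µg/ml lipopolysaccharide and sorted as GFP+. The plasma cells of the 3 assays may therefore differ in origin, and cell type and culture cannot be told apart in the contact maps. ChIP-seq libraries of the series were not analysed here.

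BACH2 is a basic leucine zipper factor of the CNC family that pairs with small Maf proteins at Maf recognition elements, and it holds back Prdm1, the gene of the plasma cell regulator BLIMP-1. BCL6 is a BTB zinc finger repressor that recruits corepressors such as NCOR1 and BCOR, is best known for the germinal centre program, and also represses Prdm1. BLIMP-1 in turn shuts off genes of the B cell program, so these repressors form a mutually inhibitory circuit that separates B cell identity from antibody secretion.

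The promoter sequences are shown for the annotated start sites of the main transcripts and for short motifs of factors linked to this circuit. They were copied from RefSeq on build GRCm38.p6, 5′ to 3′ on the gene's strand, with 250 bases before and 50 bases after the annotated start. Capitals mark motif matches, and the motifs searched on both strands were TTCNNNGAA (the STAT type of site, to which BCL6 sites are related), TGANTCA (Maf and AP-1 core), AGNGAAAG (BLIMP-1 core), the IRF composite motif, ATGCAAAT (octamer), the E-box CACGTG, the Sp1 type of GC box, which reads GGGCGG, and the core promoter box TATAAA. No matches overlapped.

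Bach2, chr4:32417185-32417484, plus strand: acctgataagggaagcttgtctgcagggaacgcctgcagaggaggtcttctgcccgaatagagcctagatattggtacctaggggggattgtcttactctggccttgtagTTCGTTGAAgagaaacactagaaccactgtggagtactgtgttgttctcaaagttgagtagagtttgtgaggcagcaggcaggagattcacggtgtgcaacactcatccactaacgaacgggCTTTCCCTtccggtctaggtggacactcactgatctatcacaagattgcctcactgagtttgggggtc

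Bcl6, chr16:23988803-23989102, minus strand: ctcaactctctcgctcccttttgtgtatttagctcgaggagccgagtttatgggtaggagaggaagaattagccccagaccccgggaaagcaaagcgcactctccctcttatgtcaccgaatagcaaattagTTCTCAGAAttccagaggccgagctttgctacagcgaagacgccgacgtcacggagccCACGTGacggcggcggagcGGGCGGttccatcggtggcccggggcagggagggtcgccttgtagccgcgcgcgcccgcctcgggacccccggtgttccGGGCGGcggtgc

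Bcl6, second listed start, chr16:23981234-23981533, minus strand: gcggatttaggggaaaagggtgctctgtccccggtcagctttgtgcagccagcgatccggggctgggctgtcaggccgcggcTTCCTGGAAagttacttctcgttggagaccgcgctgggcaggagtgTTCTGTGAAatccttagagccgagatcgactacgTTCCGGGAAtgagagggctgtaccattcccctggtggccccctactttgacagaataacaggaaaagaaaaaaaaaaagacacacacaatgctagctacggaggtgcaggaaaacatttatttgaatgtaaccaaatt

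All 3 windows held TTCNNNGAA, at 1 place in Bach2, 1 in the first Bcl6 window and 3 in the second. Of the 32851 RefSeq mouse promoters of that length, 8.30% held it. The Bach2 window also held AGNGAAAG on the opposite strand, which 8.63% of all promoters held. The first Bcl6 window held CACGTG once (7.15% of promoters) and GGGCGG at 2 places (35.7%). None of the 3 windows held TGANTCA, the IRF motif, ATGCAAAT or TATAAA, which were found in 7.81%, 3.44%, 1.74% and 13.6% of promoters. The Bach2 window was 50.3% G or C with 7 CpG dinucleotides, and the first Bcl6 window 62.7% with 31, beside medians of 52.7% and 7. A match describes letters and is not evidence of binding.

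Both genes were at much lower transcript levels in plasma cells. Bach2 was at 76.7 TPM (a level per transcript length, scaled to the library) in the naive library and 3.88 TPM in the plasma library, a ratio of 19.8. Bcl6 was at 59.2 TPM and 3.82 TPM, a ratio of 15.5. The estimated read counts behind these levels were 13298 and 1158 for Bach2 and 4321 and 526 for Bcl6. Most genes had lower TPM in the plasma library, with a median log2 difference of -0.99 over the 7495 genes at 5 TPM or more in both libraries, so log2 ratios of TPM + 1 are given relative to that median. On this scale Bach2 differed by -3.01 and Bcl6 by -2.66, and without the centring by -3.99 and -3.64. The same ratios from estimated counts were -3.38 for Bach2 (95% exact interval -3.47 to -3.29) and -2.90 for Bcl6 (-3.03 to -2.77). All intervals here describe counting error alone: the reads carried no molecular identifiers, and PCR copies are not separate molecules.

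Among 10219 genes that reached 5 TPM in either library, 22.1% had a ratio past 2-fold on the lower side in plasma cells and 16.0% on the higher side, so passing that threshold is common. Bach2 and Bcl6 lay far beyond it: 191 of the 10219 genes had a lower ratio than Bach2 and 271 a lower ratio than Bcl6. Both members passed the 5 TPM filter through the naive library alone, where they were high. These ranks therefore describe order only and are no separate support for the difference. Without centring, 5890 genes passed as lower and 792 as higher, and both members remained on the lower side. In bulk RNA, fewer cells of a type and less RNA per cell cannot be told apart.

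Bach2 transcripts start at widely separated places, and 1 of them carried most of the signal in both libraries. Transcript Bach2-203 (ENSMUST00000171600), which begins at the start site of the promoter printed above, was at 64.4 TPM in naive cells and 3.32 TPM in plasma cells. It made up 84.0% of the gene's TPM in the naive library and 85.7% in the plasma library. Bach2-001 (ENSMUST00000108180) has the same coding length of 2520 bases, and its annotated start at base 32238804 of chromosome 4 (GENCODE annotation of GRCm38) lies 178631 bases upstream. Bach2-001 was at 8.14 TPM in naive cells, with 1509 estimated reads, and was listed at 0 in plasma cells. The short coding form Bach2-002, which starts near Bach2-001 and has a 2151-base coding sequence, was at 2.64 and 0.289 TPM. Bach2-202 was at 1.04 and 0.000119 TPM and Bach2-201 at 0.460 and 0.267 TPM. Of the forms at the upstream start, Bach2-001 thus made up 10.6% of naive Bach2 TPM, and Bach2-002 made up 3.44% in naive and 7.45% in plasma cells, the latter from 39.0 estimated reads. Transcripts that share exons divide reads by estimate, so these shares carry an error beyond counting, and whether reads of the antisense gene Bach2os were kept apart is not given in the sources used here. Bcl6 had a single deposited transcript, Bcl6-001 (ENSMUST00000023151), whose annotated start is that of the first Bcl6 promoter above.

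**Figure D1:**
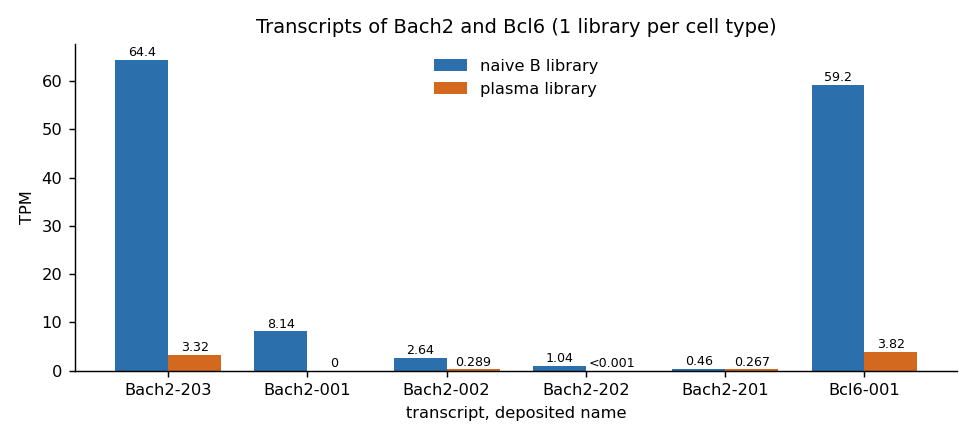
Level of each deposited transcript of Bach2 and Bcl6 in TPM (vertical axis) in the naive B library (blue) and the plasma library (orange), 1 library each, with no error bars. Bach2-203 at 64.4 TPM and Bcl6-001 at 59.2 TPM stand above all other transcripts in naive cells, and they are at 3.32 and 3.82 TPM in plasma cells.

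The libraries carried the markers of their labels, with exceptions. Of 7 matched naive B markers, 6 were at least 2-fold lower in plasma cells, and Cd79a was not. Of 8 plasma cell markers, 7 were tested and 6 were at least 2-fold higher, among them Prdm1 at 2.29 and 249 TPM. The level of Sdc1, the gene of the sorting antigen CD138, was 11.1 and 5.38 TPM, and Tnfrsf17 was at 2.24 and 1.68 TPM. Macrophage markers summed to 125 TPM in the naive library and 1.52 TPM in the plasma library over 5 of 5 genes. Germinal centre B markers, relevant because Bcl6 is highest in those cells, summed to 30.7 and 29.9 TPM over 6 genes, with Gcsam listed at 0 in plasma cells. Erythroid genes summed to 81.5 and 2.28 TPM over 4 genes, with 3 of them listed at 0 in plasma cells, and neutrophil genes to 23.2 and 0.776 TPM over 3. T cell and follicular helper genes summed to 372 and 53.4 TPM over 7, most of it from Cxcr5, which B cells also express, with Cd3e and Il21 listed at 0 in plasma cells. The part of such cells in the levels of Bach2 and Bcl6 was not tested.

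The nearest relatives of both repressors did not all share their low plasma level. In the CNC and small Maf family, 5 of 8 genes had at least 5 TPM, with 1 higher and 2 lower by 2-fold, and a median log2 ratio of 0.02 beside -0.23 for all tested genes. Bach1, the closest paralog of Bach2 and a heme-regulated repressor, was at 12.2 and 7.24 TPM, a centred ratio of 0.31. Nfe2l2, which encodes the oxidative stress activator NRF2, was at 56.5 and 8.85 TPM (-1.56), and the dimer partner gene Mafk at 28.6 and 5.25 TPM (-1.26). Nfe2l1, an activator of proteasome genes, was at 52.6 and 55.6 TPM (1.06), higher only relative to the median shift. Of 21 BTB zinc finger relatives of Bcl6, 16 were tested, with 2 higher, 6 lower and a median of -0.71. Both lists stand beside 16.0% higher and 22.1% lower of all tested genes. Zbtb32, a repressor known from plasma cells, differed in the opposite direction to Bcl6, at 12.9 and 96.8 TPM (3.80). Zbtb18 was at 86.0 and 3.46 TPM (-3.30), a more negative ratio than that of Bcl6, and Zbtb1 at 57.5 and 8.48 TPM (-1.64). The direct homolog Bcl6b was low in both libraries, at 1.06 and 0.312 TPM.

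Corepressor genes had ratios closer to 0 than the repressors they serve. Of 20 corepressor genes, 18 were tested, with 0 higher, 3 lower and a median of -0.58, beside 16.0% higher, 22.1% lower and a median of -0.23 over all tested genes, so the count of lower genes was near the background. Ncor1, which BCL6 recruits through its BTB domain, was at 141 and 44.2 TPM (-0.66) and Bcor at 44.4 and 10.7 TPM (-0.97). The genes past the threshold were Tbl1xr1 (34.6 and 5.18 TPM, -1.54) and Gps2 (141 and 25.2 TPM, -1.45), both subunits of the NCOR1 complex, and Mta3 (65.0 and 12.5 TPM, -1.30), a NuRD subunit known as a BCL6 partner. Without centring, 16 of the 18 corepressor genes passed as lower.

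Genes known to act on Bach2 or Bcl6 included 1 higher and 4 lower among 14 tested, with a median of -0.60, beside 16.0% higher and 22.1% lower of all tested genes. Pax5, an activator of the B cell program that is known to act on Bach2, was at 346 and 15.7 TPM (-3.39), and Ebf1 at 102 and 20.0 TPM (-1.30). Foxo1, which supports Bcl6 transcription, was at 90.1 and 18.1 TPM (-1.27), and Fbxo11, the ubiquitin ligase subunit that marks BCL6 protein for degradation, at 75.6 and 15.5 TPM (-1.23). Irf4, which is known to repress Bcl6 at high levels, was at 96.6 and 221 TPM (2.17).

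Genes known to be repressed by BACH2 or bound at Maf recognition elements, taken as 1 list, were mixed in direction. Of 12 genes, 9 were tested, with 4 higher, 1 lower and a median of 0.90. Over all tested genes, 16.0% were higher and 22.1% lower, with a median of -0.23. Without centring, 3 of the 9 were higher and 3 lower. The cytokine gene Il10 was at 0.151 and 103 TPM (7.48), Prdm1 at 2.29 and 249 TPM (7.23), and the cell cycle inhibitor gene Cdkn1a at 1.54 and 21.8 TPM (4.15). Among genes of heme and iron handling, Ftl1 was at 1289 and 2135 TPM (1.71), Fth1 at 1208 and 566 TPM (-0.11), and the heme oxygenase gene Hmox1 at 105 and 19.8 TPM (-1.36). Hmox1 is high in macrophages, whose markers were 125 TPM in the naive library, and their part in this value was not tested.

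Of 20 genes known to be repressed by BCL6, 19 were tested, with 9 higher, 3 lower and a median of 0.25. The shares over all tested genes were 16.0% higher and 22.1% lower, with a median of -0.23. Prdm1 is also on this list, and the survival gene Bcl2l1 was at 3.99 and 80.8 TPM (5.02). S1pr1, a lymphocyte egress receptor, was at 269 and 6.57 TPM (-4.17), and Bcl2 at 45.6 and 4.75 TPM (-2.03), both in the opposite direction to Prdm1. The DNA damage response genes Trp53 and Atr stayed within 2-fold, at -0.57 and -0.97, while Chek1 was at 4.12 and 14.2 TPM (2.56). Without centring, 9 of the 19 were higher and 9 lower.

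**Figure D2:**
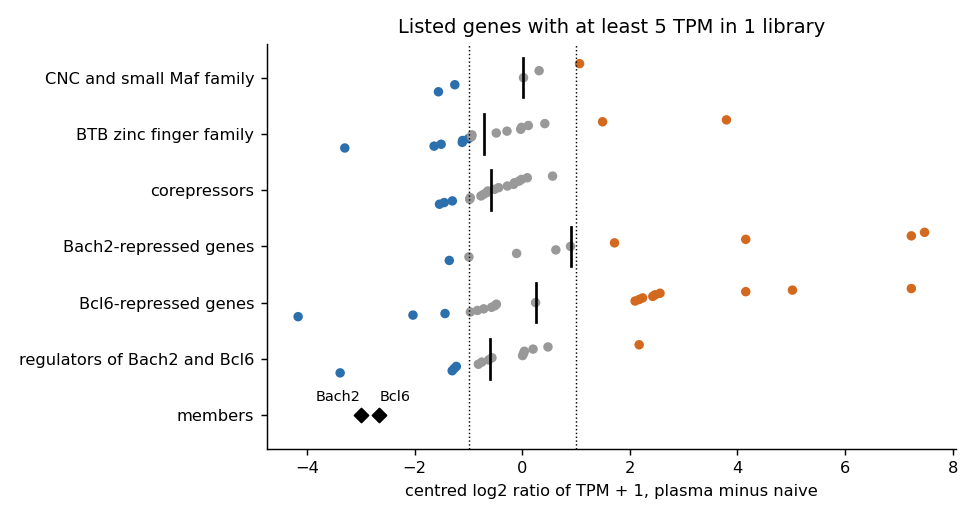
Centred log2 ratio of TPM + 1, plasma minus naive (horizontal axis), for genes of 6 lists with at least 5 TPM in 1 library, 1 point per gene, coloured orange where at least 2-fold higher, blue where at least 2-fold lower and grey between, with the list median as a black bar and dotted lines at 2-fold. Bach2 at -3.01 and Bcl6 at -2.66 (diamonds) lie below every list median, which range from -0.71 to 0.90.

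Genes whose pattern was most like that of each member were picked by the nearest ratio among genes with a naive TPM at most 25% above or 20% below its own, over 2 libraries. For Bach2 these were Pydc4 (86.8 and 4.49 TPM), Trim5 (76.0 and 3.73 TPM) and Lrrk2 (89.4 and 4.85 TPM), and 23 of 1116 genes in that range were as low as Bach2 or lower. For Bcl6 they were Rdh12 (49.7 and 3.05 TPM), Fam43a (60.6 and 3.85 TPM) and Chst15 (47.4 and 2.77 TPM), with 38 of 1345 as low or lower. The range was set on naive TPM alone, so these counts also describe order only.

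Neighbouring genes were taken in the order of the RefSeq annotation, and those beside Bach2 went in both directions. Beside Bach2, Map3k7, which encodes the kinase TAK1, had a ratio of -0.47, Casp8ap2 -0.38 and Lyrm2 0.09. Mdn1, a ribosome biogenesis gene farther along, was at 25.96 and 3.19 TPM (-1.70), and Manea on the other side at 23.3 and 27.8 TPM (1.23). Beside Bcl6, the adjacent gene Lpp, which encodes an adhesion protein, was at 12.3 and 0.779 TPM (-1.92). Rtp4 was at 17.3 and 5.38 TPM (-0.54), and the other neighbours were at or near 0 TPM in both libraries, so they show no difference either way.

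The accessible regions of the loci differed in opposite directions. The authors called peaks in 1 list per cell type, with a score for each peak, and peaks that overlapped by at least 1 base were counted as shared. The Bach2 window held 30 naive peaks over 52.1 kb and 44 plasma peaks over 85.5 kb, although Bach2 RNA was lower in plasma cells. Of these, 23 were shared from either side, so 7 naive peaks and 21 plasma peaks (47.7%) had no counterpart, beside 31.3% of all naive peaks and 33.2% of all plasma peaks. The Bcl6 window held 10 naive peaks over 15.1 kb and 4 plasma peaks over 9.72 kb. Of these, 3 were shared, leaving 7 naive peaks (70.0%) and 1 plasma peak without a counterpart.

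Among windows of the same length with at least 10 naive peaks, the ratio of plasma to naive peaks had a median of 1.03 for 1 Mb windows and 1.04 for 0.6 Mb windows. The Bach2 ratio was 1.47, and 146 of 1260 windows (11.6%) were as high or higher. The Bcl6 ratio was 0.40, and 47 of 1307 windows (3.60%) were as low or lower. The filter used naive peaks alone, and the Bcl6 window, with 10 naive and 4 plasma peaks, met it at its minimum. These ranks therefore hold only among windows chosen for their naive peaks, and do not show how unusual either ratio is among all windows. A filter that treats the lists alike was not tested. With peaks of score 100 or more, the Bach2 window held 22 naive and 26 plasma peaks, so most of the plasma excess lay in weak peaks. Of these, 6 and 10 had no counterpart, and the share over all peaks at that score was not computed. At that score the Bcl6 window held 8 and 3. Peak calls depend on depth, which is unknown for these lists.

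The naive peaks with the highest scores in the Bcl6 window lay between 24 and 24.3 Mb. From 24 to 24.3 Mb there were 7 naive peaks and 1 plasma peak. Of these naive peaks, 6 had no overlap in the plasma list, beside 31.3% of all naive peaks. The highest naive peak there, chr16:24150834-24152874 (mm9), had a score of 643.67 and no plasma peak overlapped it. The next, chr16:24164845-24166599, had a score of 464.91 in naive cells and 79.58 in plasma cells. From 23.7 to 24 Mb both lists held 3 peaks. The shared peak at chr16:23987442-23989932 scored 175.47 and 145.01, and was thus still called where Bcl6 RNA was low. The plasma list alone held chr16:23981980-23985895, a 3.92 kb region with a score of 222.61. The mm9 annotation was not used here, so no peak is placed in an exon, intron or promoter.

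At Bach2, the 3 naive peaks with the highest scores were overlapped by plasma peaks, and the next one was not. The peak at chr4:32324690-32327642 (mm9) scored 671.63 in naive and 1230.97 in plasma cells, and the one at chr4:32701386-32703156 scored 966.5 and 1173.49. A broad region at chr4:32334668-32338913 spanned 4.25 kb in naive cells and 6.23 kb in plasma cells. Of the 23 shared peaks, 15 were wider in plasma cells (65.2%), beside 71.9% of the 20533 shared naive peaks of the whole list, so wider plasma peaks were no more frequent here. The plasma list alone held chr4:32212632-32214882 with a score of 887.02, the 91.9th percentile of its list, and the naive list alone held chr4:32073537-32075351 with 639.61, the fourth highest naive score of the window. From 32.5 to 33 Mb there were 9 naive peaks and 18 plasma peaks, 12 of the latter without a counterpart, beside 33.2% of all plasma peaks. Scores are the authors' own and are not scaled between the lists.

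**Figure D3:**
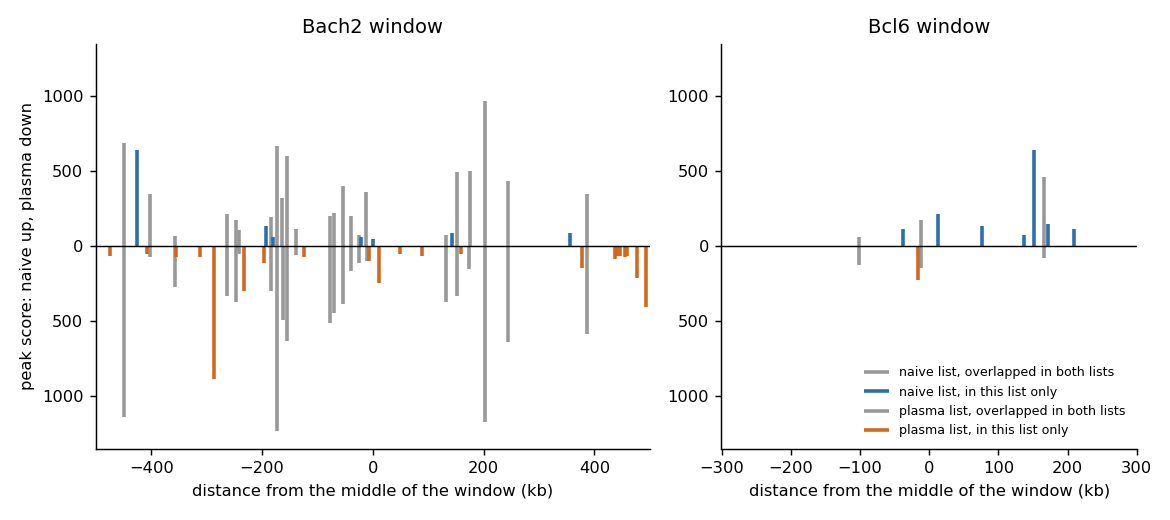
Score of each ATAC-seq peak (naive upward, plasma downward) by distance in kb from the middle of the Bach2 window (left) and the Bcl6 window (right), with grey for peaks overlapped in both lists and colour for peaks in 1 list. In the Bach2 window, 9 of 26 plasma peaks left of the middle and 12 of 18 right of it had no counterpart. The share over all plasma peaks was 33.2%. The naive peaks with scores of 643.67 and 464.91 stand to the right of the Bcl6 middle, where 1 plasma peak with a score of 79.58 was called.

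The contact maps asked where these loci lie relative to each other and to other chromosomes. The deposited 2 Mb maps are balanced so that every bin has the same total of 1354 contacts, and read pairs were recovered from the 500 kb maps. There were 8909246 pairs between chromosomes in the naive map and 7585301 in the plasma map, and ratios of read pairs are scaled to these totals. The Bach2 bin (32 to 34 Mb) and the Bcl6 bin (22 to 24 Mb) had a balanced contact of 0.565 in naive cells and 0.575 in plasma cells. That was 2.13 and 2.62 times the mean contact between chromosomes, and ranked 309th and 123rd among the 3773 bin pairs of chromosomes 4 and 16. The 32 and 36 read pairs behind it gave a scaled log2 ratio of 0.40 with a 95% interval from -0.33 to 1.14, so no difference was detectable at this depth.

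The next bin of chromosome 16, 24 to 26 Mb, was added after its values were seen, because the Bcl6 peak window reaches into it. Its contact with the Bach2 bin was 1.15 in naive cells and 0.571 in plasma cells, or 4.32 and 2.60 times the mean between chromosomes. It ranked 12th of 3773 in naive cells and 128th in plasma cells. The read pairs were 69 and 38, a scaled log2 ratio of -0.63 (95% interval -1.24 to -0.04).

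At 500 kb the naive read pairs of the Bach2 megabase were most numerous from 24 Mb of chromosome 16 onward. The first megabase of the Bach2 bin had 25 read pairs with 24 to 24.5 Mb of chromosome 16 in naive cells (95% Poisson interval 16.2 to 36.9) and 6 in plasma cells (2.202 to 13.1), a scaled log2 ratio of -1.83 (-3.40 to -0.51). With 24.5 to 25 Mb it had 20 and 9 pairs, a ratio of -0.92 whose interval includes 0 (-2.24 to 0.28). With the 500 kb from 25 Mb, its 2 bins had 5 and 6 naive pairs and 0 and 2 plasma pairs. With 23.5 to 24 Mb, the other side of the bin edge at 24 Mb, it had 1 and 3 pairs. The following megabase of chromosome 4, from 33 to 34 Mb, had 5 pairs with 24 to 24.5 Mb in either map. The naive read pairs of the Bach2 megabase were thus spread over 24 to 25.5 Mb, beyond the end of the Bcl6 peak window, and peaks past 24.3 Mb were not counted.

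**Figure D4:**
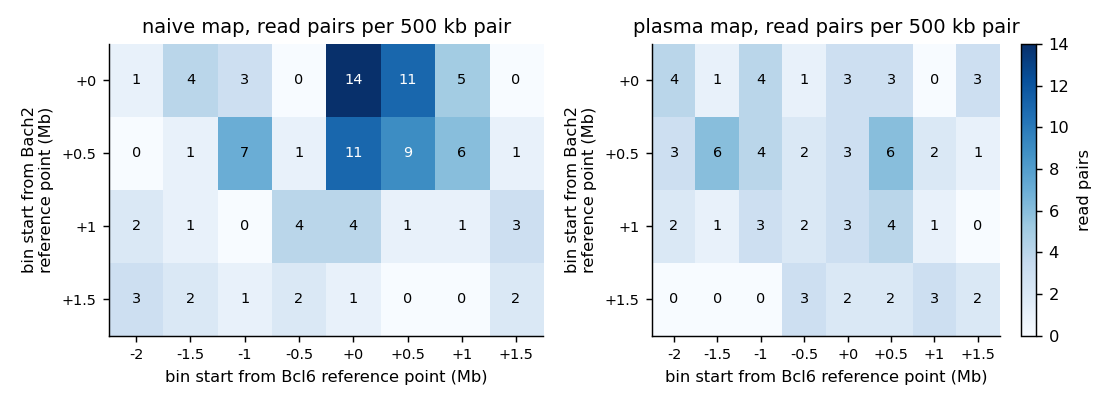
Read pairs between 500 kb bins of the Bach2 region (rows, from 32 Mb of chromosome 4) and of the Bcl6 region (columns, from 24 Mb of chromosome 16) in the naive map (left) and the plasma map (right), with the count written in each cell. The naive map has 14, 11, 11 and 9 pairs where the first Bach2 rows meet the first columns from the Bcl6 reference point, and the plasma map has 3, 3, 3 and 6.

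The authors' deposited lists of 1 Mb interactions held the same pair. In the authors' deposited naive list, 32 to 33 Mb of chromosome 4 and 24 to 25 Mb of chromosome 16 had 45 reads where 5.77 were expected, with a Z-score of 2.24. It was the partner with the second lowest p-value among 155 listed for that Bach2 bin. The authors' deposited plasma list had 15 reads where 4.62 were expected, with a Z-score of 1.26 and a false discovery rate of 0.005428. The recovered pairs gave a scaled log2 ratio of -1.35 (95% interval -2.30 to -0.48). These reads are those of the 500 kb blocks above, so the lists add no separate evidence. The pair and those blocks were singled out after their high naive counts were seen, so a negative ratio is partly built in. The authors' deposited plasma list also held the Bach2 bin with 22 to 23 Mb of chromosome 16, at 14 reads against 4.20 expected, where the naive map had 6 pairs. The pair with 23 to 24 Mb had 11 reads in both maps and was in neither list.

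In the naive list, the Bach2 bin ranked 201st and the bin at 24 to 25 Mb of chromosome 16 ranked 216th of 2480 bins by the number of listed interactions with other chromosomes, and in the plasma list they ranked 328th and 1037th. The Bach2 bin at 32 to 33 Mb had 155 listed interactions in naive cells and 97 in plasma cells, beside medians per bin of 17 and 20. Its adjacent bins were far lower, with 5 naive interactions at 31 to 32 Mb and 27 at 33 to 34 Mb. The bin at 24 to 25 Mb of chromosome 16 had 148 naive and 28 plasma interactions, and 21 of 2480 bins had a larger difference in that direction, beside 179 for the Bach2 bin. The bin at 23 to 24 Mb had 56 and 31, and the bin at 22 to 23 Mb had 45 and 72, the opposite direction. The authors' deposited lists give total reads of 38643 naive and 41623 plasma for the Bach2 bin, and 42705 and 45697 for the bin at 24 to 25 Mb. Read pairs between chromosomes numbered 8909246 in the naive map and 7585301 in the plasma map. The part of read depth in the numbers of listed interactions was not tested.

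**Figure D5:**
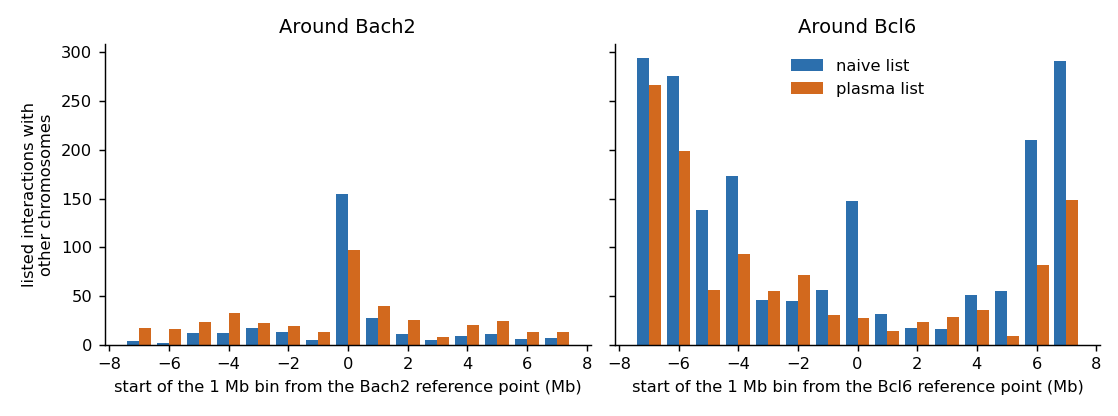
Number of listed interactions with other chromosomes (vertical axis) for each 1 Mb bin within 7 Mb of the Bach2 reference point (32 Mb of chromosome 4, left) and of the Bcl6 reference point (24 Mb of chromosome 16, right), with naive in blue and plasma in orange. The bin at each reference point, with 155 and 97 on the left and 148 and 28 on the right, is above the adjacent bins in the naive list, while bins 6 and 7 Mb away on either side of the Bcl6 reference point are higher still, at 210 to 294.

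Part of the partners were in both lists. Of the 155 naive interactions of the Bach2 bin, 30 (19.4%) were also in its plasma list of 97 (30.9%), and for the bin at 24 to 25 Mb 12 of 148 (8.11%) were in its plasma list of 28 (42.9%). The naive share of a bin is limited by the length of its plasma list, so the short list at 24 to 25 Mb holds that share down. Over all bins, 30.8% of naive interactions were in the plasma list and 31.7% of plasma interactions in the naive list. At the naive partners, the Bach2 bin had 2974 naive and 1244 plasma read pairs, a scaled log2 ratio of -1.03, and the bin at 24 to 25 Mb had 3095 and 1057, a ratio of -1.32. Partners listed in naive cells were chosen for high naive counts, so a negative ratio is built in, and the median over 570 bins with at least 50 naive partners was -0.70. At the partners listed in plasma cells, where the choice acts the other way, the ratios were 0.54 for the Bach2 bin (95% interval 0.43 to 0.66) and 0.15 for the bin at 24 to 25 Mb (-0.05 to 0.35). At the naive partners, 100 of the 570 bins were lower than the Bach2 bin and 23 lower than the bin at 24 to 25 Mb.

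The bins listed with both loci were counted for each Bcl6 bin. The bin at 23 to 24 Mb shared 16 bins with the Bach2 bin in naive cells, 11.0% of the Bach2 partners and 29.6% of its own 54, and 10 in plasma cells, 11.0% and 33.3%. The bin at 24 to 25 Mb, chosen after its values were seen, shared more in naive cells. Leaving out chromosomes 4 and 16, 76 bins were listed with both, 52.4% of the 145 partners of the Bach2 bin and 53.1% of the 143 partners of the bin at 24 to 25 Mb. Among 542 bins of other chromosomes with at least 50 naive partners, the median shared 17.1% of the Bach2 partners, the highest shared 72.1%, and the bin at 24 to 25 Mb ranked 17th. These shares come from 1 map and bins of high read number enter many lists. In plasma cells 8 bins were shared, 8.79% of 91 and 29.6% of 27. The strongest common naive partner was 44 to 45 Mb of chromosome 13, with 42 naive and 6 plasma pairs for the Bach2 bin and 56 and 9 for the bin at 24 to 25 Mb. Next was 80 to 81 Mb of chromosome 12, the naive partner of the Bach2 bin with the lowest p-value, with 47 and 17 pairs for Bach2 and 40 and 6 for the other. Both partners were picked for high naive counts, so fewer plasma pairs are partly built in.

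The plasma partners of the Bach2 bin lay more often near the start of chromosomes, which in the mouse is the centromere end. Within the first 12 Mb lay 5 of 155 naive partners (3.23%) and 21 of 97 plasma partners (21.6%), beside 9.18% and 15.6% of partners over all bins. Its first plasma partners by p-value were 4 to 5 Mb of chromosome 12 with 23 pairs (13 in naive cells) and 5 to 6 Mb of chromosome 17 with 23 pairs (15 in naive cells). The adjacent bin at 33 to 34 Mb of chromosome 4 went the same way. There, 1 of 27 naive (3.70%) and 11 of 40 plasma partners (27.5%) lay in the first 12 Mb. The bins of chromosome 16 differed among themselves. At 24 to 25 Mb the shares were 4.73% and 39.3%, the latter being 11 of 28, while at 23 to 24 Mb they were 12.5% and 9.68% and at 22 to 23 Mb 11.1% and 6.94%.

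Summed over all other chromosomes, both bins followed the whole map. The Bach2 bin had 27.7% of its balanced contacts on other chromosomes in naive cells and 21.7% in plasma cells, and the Bcl6 bin 28.1% and 22.8%. The medians of 1305 bins were 24.2% and 19.7%. The differences of -5.99 and -5.31 percentage points stood beside a median of -4.13, and 29.7% and 36.9% of bins had a more negative one.

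Within its chromosome, the Bach2 bin had more contact nearby and less far away in plasma cells. At 2 to 10 Mb its mean contact was 14.3 and 20.4 (log2 ratio 0.51, median of chromosome 4 bins 0.27), and beyond 40 Mb 3.05 and 1.55 (-0.98, median -0.71). The 500 kb bin at 32 Mb had a mean contact of 4.67 in naive and 13.3 in plasma cells at 2 to 10 Mb. That was a ratio of 1.51 where the chromosome's median was 0.18. The bin at 32.5 Mb had a smaller ratio of 0.72 there, and -0.42 at 20 to 40 Mb, where the bin at 32 Mb had 0.10. The 500 kb bin at 24 Mb of chromosome 16 had a positive ratio at every distance. Its mean contact was 9.33 and 16.04 at 2 to 10 Mb (0.78, median 0.16), 4.59 and 10.6 at 10 to 20 Mb (1.20, median 0.25), and 2.05 and 3.21 beyond 40 Mb (0.65, median -0.40). The 2 Mb Bcl6 bin had ratios of 0.14, -0.21, -0.29 and -0.70 from the nearest to the farthest range. The medians of 2 Mb bins of chromosome 16 were 0.25, 0.25, 0.37 and -0.47, so this bin was lower at every range. Over the same ranges, the 500 kb bin at 23.5 Mb, adjoining the one at 24 Mb, had 0.03, 0.04, 0.0005 and -0.33. The medians of 500 kb bins of chromosome 16 were 0.16, 0.25, 0.36 and -0.40.

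Contacts across the bin edge at 24 Mb of chromosome 16 were higher in plasma cells. The bins at 23.5 and 24 Mb had 468 read pairs in naive and 1103 in plasma cells, with balanced contacts of 126 and 259, a log2 ratio of 1.04. Of 4996 pairs of adjacent 500 kb bins, whose median was 0.48, 97.0% had a lower ratio. The bins at 23.5 and 24.5 Mb, also across this edge, had a ratio of 0.83. Of 4958 pairs at that distance, whose median was 0.49, 78.7% were lower. The bins at 24 and 24.5 Mb went the other way, from 3195 to 2506 read pairs and from 777 to 540 balanced contacts (-0.52), and 0.100% of adjacent pairs were lower. The corresponding bins of Bach2, at 32 and 32.5 Mb, had 507 and 543 balanced contacts (0.10), with 8.73% of adjacent pairs lower.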

How the data were processed

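Of the 10 samples of the series, 6 had a processed file and are described here, and 4 ChIP-seq samples were not analysed here. Bowtie, HOMER, TopHat, Picard, MACS 1.4, kallisto and build mm9 are named in the submitters' processing notes; for the others a version is not given in the sources used here, nor is whether kallisto used the strand of these stranded libraries. Per the file headers, the deposited RNA tables hold TPM and estimated counts for each transcript from kallisto, with totals of 36995177 and 43457786 estimated counts. The deposited ATAC-seq peak lists carry the authors' score per peak. The deposited contact maps hold a balanced contact signal. The deposited 1 Mb interaction lists hold counts of read pairs, the authors' expected reads, Z-score and false discovery rate, a q-value, per the file headers.

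Transcripts were summed by symbol. Log2 ratios used TPM + 1 and were centred on the genes that reached 5 TPM in both libraries; those reaching it in either one were counted as higher or lower from 2-fold. Estimated counts were rounded for the edgeR 4.0.16 (TMM) and DESeq2 1.42.0 size factors in R 4.3.3; neither was used for a test. Read pairs were recovered by undoing the balancing of the 500 kb maps, where 99.95% and 100.0% of entries came out whole within 0.05, and they equalled the listed read pairs in 99.98% and 99.96% of interactions. Intervals are exact, at 95%. The remaining work used Python 3.11.15, numpy 2.4.6, pandas 2.3.3 and scipy 1.17.1, and the calculations were tested on simulated data. In each list, the 3 members with the largest ratio were named, plus members singled out by role after their values were seen; the 3 most similar genes had the nearest ratio among genes with a naive TPM at most 25% above or 20% below. The members and lists were chosen with earlier results of these data known. Alternatives were the pseudocount, centring, scaling, filter, transcript set, score, overlap, window, bin size and read pairs in place of balanced contacts. Peaks were not placed in exons or introns, since no mm9 annotation was used here, and promoters are from another build.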

Additional observations from a re-analysis of the deposited data

How the results depend on the processing

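No paired analysis was possible because each assay had 1 library per cell type. Of 104 alternatives over 41 results, 63 left the value about where it was, 37 moved it and 4 reversed its sign; the cause was not tested. The log2 ratio of Bach2 was -3.24 with a pseudocount of 0.1 TPM, -2.36 with 5 TPM, -3.99 without centring and -3.38 from estimated counts, and that of Bcl6 was -2.89, -2.02, -3.64 and -2.90. By estimated counts, Bach2-203 made up 85.9% of naive and 95.9% of plasma Bach2. Without a filter on low values, 3680 genes were higher, with 2 in the CNC and small Maf list, 4 in the BTB list and 1 among corepressors; from 1 TPM these lists gave 2 for CNC and 1 for corepressors. Without centring, an alternative chosen after seeing the data, 792 genes were higher and 5890 lower. Of the CNC list 0 genes and of the BTB list 1 gene were higher. Lower were 12 BTB genes, 16 corepressors, 3 genes of the BACH2 list, 9 Bcl6-repressed genes and 8 regulators. At scores of 100 or more, the Bach2 window held 26 plasma peaks, 10 in that list alone, and the Bcl6 window had 2 plasma peaks in that list alone. The share over all peaks at that score was not computed. With windows widened by 200 kb, Bcl6 had 16 naive peaks, 11 in that list alone, beside 31.3% of all naive peaks. The balanced log2 ratio of the Bach2 and Bcl6 bins was -0.011 with 500 kb bins and -1.01 for the next bin of chromosome 16, also chosen after seeing the data. Contact with all other chromosomes had ratios of -0.038 (Bach2) and 0.00069 (Bcl6) by read pairs scaled to depth, and -0.077 and -0.028 scaled to the mean between chromosomes. With 500 kb bins, the share on other chromosomes was 27.4% and 21.4% for Bach2 and 27.8% and 22.5% for Bcl6, and the Bcl6 ratio at 2 to 10 Mb was -0.087. Single libraries and few read pairs per bin pair limit all of these values.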
